A study of Mus musculus with 4 samples.

Results

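The genes described here encode the nuclear-encoded subunits of the mitochondrial respiratory chain and of ATP synthase, with the assembly factors of complex I and cytochrome c. They were chosen by symbol alone: every gene whose name begins with Nduf, Uqcr, Atp5 or Cox followed by a digit between 4 and 8, with Cyc1 and Cycs. This gave 84 of the 11883 genes listed, of which 37 belong to complex I, 9 to complex III, 12 to complex IV and 17 to complex V by name, 8 are complex I assembly factors and 1 is Cycs. RNA came from T helper 2 (Th2) cells sorted from perfused lungs as live cells positive for CD4 and T1/ST2, the interleukin-33 receptor. All mice were C57BL/6, had received chronic papain, a protease that provokes allergic airway inflammation, and carried Gata3 with sites that Cre recombinase can cut. The 2 samples of Klrg1Cre Gata3(fl/fl), called Klrg1Cre, also carried a Cre named for Klrg1, and the 2 samples of Gata3(fl/fl), called control, did not. No group with the Cre and unaltered Gata3 was analysed here, so effects of the Cre and of Gata3 loss, in these or in other cells, cannot be told apart. No age is given. Since no label ties the samples to separate mice, the p-values reflect variation among these samples alone, and that variation may be technical. The deposited table names its groups ILC2 deficient and WT, where ILC2 stands for group 2 innate lymphoid cells. ILC2 deficient was taken as Klrg1Cre and WT as control, a link that the labels do not state. An effect of an ILC2 deficiency on these Th2 cells cannot be told apart from those of the Cre and of Gata3 loss.

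The respiratory chain sits in the inner mitochondrial membrane. Complex I (NADH dehydrogenase) and complex II (succinate dehydrogenase) pass electrons to coenzyme Q, complex III (cytochrome bc1) passes them on to cytochrome c, and complex IV (cytochrome c oxidase) gives them to oxygen. Complexes I, III and IV pump protons, and ATP synthase, or complex V, lets the protons flow back while it makes ATP. Subunits come from both the nuclear and the mitochondrial genome, and activated T cells are known to raise respiration together with glycolysis. The promoters of many nuclear subunit genes are known targets of NRF1 and of the ETS factor GABP.

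Promoters of 69 of the 84 genes could be matched in RefSeq (build GRCm38.p6), and the 250 bases before the start were searched on both strands. For members and listed genes, a match in any promoter window of the gene counted. The shares over all windows count each window singly, so they are not in like units. The NRF1 core GCATGCGC was in 9 of 69 (13%), against 5.23% of 9547 listed genes with a promoter and 2.26% of all 32851 promoter windows. The ETS core CCGGAAG was in 13 of 69 (18.8%), against 16.5% of listed genes and 6.91% of all windows. The full CREB site TGACGTCA was in 5 of 69 (7.25%), against 3.13% and 1.55%. The CCAAT box (CCAAT) was in 42.0% against 40.9% and 33.8%, the TATA box (TATAAA) in 8.70% against 7.93% and 12.4%, and the YY1 core AAGATGGC in 1.45% against 2.57% and 1.56%. These are matches of letters and not sites, no printed match overlaps another, and no test was made; the NRF1 letters were chosen after the Cycs promoter had been seen. The 120 bases before the start are shown for Cycs, whose promoter has an NRF1 core, and for members at the top or bottom of the differences below or at the highest level, with motif matches in capitals.
Cycs, chr6:50566570-50566689, minus strand: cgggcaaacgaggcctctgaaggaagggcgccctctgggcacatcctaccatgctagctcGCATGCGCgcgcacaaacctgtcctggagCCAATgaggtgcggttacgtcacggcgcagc
Uqcrfs1, chr13:30545317-30545436, minus strand: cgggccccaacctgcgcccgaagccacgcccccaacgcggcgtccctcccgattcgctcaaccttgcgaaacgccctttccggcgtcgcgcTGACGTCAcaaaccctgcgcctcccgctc
Ndufb7, chr8:83566638-83566757, plus strand: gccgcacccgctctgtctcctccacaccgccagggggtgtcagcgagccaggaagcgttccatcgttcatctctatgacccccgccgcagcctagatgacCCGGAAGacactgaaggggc
Ndufa1, chrX:37191239-37191358, minus strand: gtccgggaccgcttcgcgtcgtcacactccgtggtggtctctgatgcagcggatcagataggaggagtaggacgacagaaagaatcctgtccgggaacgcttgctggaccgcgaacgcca
Atp5b, chr10:128083187-128083306, plus strand: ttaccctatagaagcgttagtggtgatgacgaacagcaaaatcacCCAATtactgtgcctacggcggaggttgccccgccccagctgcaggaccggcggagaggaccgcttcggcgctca
In these windows the capitals mark the NRF1 core and a CCAAT box in Cycs, the CREB site in Uqcrfs1, the ETS core in Ndufb7 and a CCAAT box in Atp5b. The window of Ndufa1 holds none of the 6 motifs.

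Library totals, recovered from whole-read steps in the deposited group means, were 26019065 and 14564426 reads in Klrg1Cre and 33379572 and 31961572 in control. Values in each library could be recovered for 49 of the 84 genes, whose reads ranged over 32 to 4531 and 10 to 2485 in the larger and smaller Klrg1Cre library, and over 28 to 5081 and 34 to 5309 in the larger and smaller control library. Which library is which sample is unknown. Gata3, the gene that the Cre can cut, had deposited means of 293.9 CPM in the Klrg1Cre libraries, against 221.4 CPM in the control libraries (adjusted p = 0.551). A value over the whole gene does not check the deletion, since reads outside the deleted part are counted too. Il1rl1, which encodes the sorted T1/ST2, stood at 59.1 CPM in Klrg1Cre, against 68.0 CPM in control. The 11 Th2 markers summed to 527 CPM in Klrg1Cre and 471 CPM in control, with Gata3 the largest part of both sums. Of the 11, 6 had higher and 5 lower deposited means. At an unadjusted p below 0.05, 3 of them (Gata3, Il5 and Il13) were higher and 0 lower, where 3.72% of all genes were higher and 3.37% lower. In the authors' deposited means, Rn45s, the ribosomal RNA precursor, took 67.1% of Klrg1Cre reads and 51.4% of control reads. The other listed genes took 18.2% in Klrg1Cre and 17.8% in control, and reads outside the listed genes made up 14.7% and 30.8%. Of the T cell markers, 11 of 14 were listed, with summed deposited means of 1541 CPM (counts scaled to library size) in Klrg1Cre and 1536 CPM in control; Lck, the most abundant, stood at 243.1 and 259.3 CPM, Cd4 at 167.6 and 150.1 CPM and Cd3e at 76.6 and 73.0 CPM, and 2 of the 11, Cd247 and Thy1, were higher at an unadjusted p below 0.05. All 16 macrophage and monocyte markers were listed, with sums of 1903 CPM in the Klrg1Cre samples, against 2698 CPM in the control samples, 8 of them with higher and 8 with lower deposited means. Chil3 alone had 1124 and 1932 CPM and was the 1 of the 16 at an unadjusted p below 0.05 (deposited adjusted p = 0.599), Lyz2 had 396 and 364 CPM, and Marco, listed at 0 in control, had 0.303 CPM in Klrg1Cre. Summed markers of granulocytes (2 of 10 listed, with Prg2 and Epx not listed) were 5.35 and 3.20 CPM, of which S100a8 had 2.89 and 2.36 CPM. Those of B cells (4 of 7) were 1.72 and 3.18 CPM, of which Cd79b had 1.12 and 2.23 CPM, with Ms4a1 listed at 0 in Klrg1Cre. Markers of lung epithelium and endothelium (7 of 9) summed to 33.3 CPM in Klrg1Cre, against 29.1 CPM in control. Pecam1 was the largest part of both sums, at 17.7 and 12.1 CPM. Deposited means were higher for 3 of the 7 and lower for 4, with Pecam1 and Scgb1a1 higher and Epcam lower at an unadjusted p below 0.05. Of the erythroid markers, 0 of 8 were listed. Other cells carry respiratory chain transcripts too, and their part in the values below was not tested.

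In CPM over all reads, the respiratory chain and ATP synthase genes had nearly the same levels in both genotypes. Their deposited means summed to 2387 CPM in Klrg1Cre, against 2381 CPM in control. Per read other than Rn45s, the median log2 ratio of the members was 0.52, after a shift that is equal for every gene. By the adjusted p in the authors' deposited table, 0 of 84 lay below 0.05, against a background of 0.0589% of all genes, and the lowest adjusted p was 0.711. At an unadjusted p below 0.05 there were also 0 of 84, where 7.09% of all genes lay below it, 3.72% with a higher and 3.37% with a lower mean in Klrg1Cre. Of genes averaging 5 CPM or more, 8.40% lay below it, and 0 of 77 members. limma on the 48 members that it could test likewise gave 0 at an adjusted p of 0.05 (background 0.165%) and 0 at an unadjusted one (background 7.87%). The median of log2(Klrg1Cre mean / control mean) was -0.05 over the members and 0.01 over all genes. Deposited means were higher in Klrg1Cre for 33 members and lower for 51, and over all genes 50.6% were higher and 49.4% lower. Of the 77 members averaging 5 CPM or more, 28 were higher and 49 lower, against 52.9% and 47.1% of all such genes. In bulk samples, a different number of cells of a type and a different amount of RNA per cell cannot be told apart.

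In deposited CPM, the differences between genotypes were small for almost every member. Of the 84 deposited ratios, 80 (95.2%) lay within 1.25-fold of equality, against 63.6% of all listed genes. Among genes averaging 5 CPM or more these shares were 97.4% of 77 members and 80.5% of 6300 genes. Mitochondrial ribosomal protein genes, which serve the same organelle, had 72 of 78 (92.3%) within this range, a median log2 ratio of 0.04 and 0 genes at an unadjusted p below 0.05. Genes with symbols of cytosolic ribosomal proteins had 87 of 95 (91.6%) within it and a median of 0.02. Of these, 2 (2.11%) had an unadjusted p below 0.05 (background 7.09%). The narrow range was therefore not particular to genes of mitochondria. For the 45 members with library values and at least 5 CPM, the 95% interval of the limma difference on log2(CPM + 1) reached less than 2-fold either way in 45 and less than 1.5-fold in 34. Its half-width ran from 0.28 to 0.52, with a median of 0.35. With 2 libraries per genotype, differences smaller than these half-widths could not be told from 0 in a single gene. The intervals are not adjusted for the number of genes, and passing the adjusted p takes larger differences. The 35 members without library values have no interval.

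**Figure D1:**
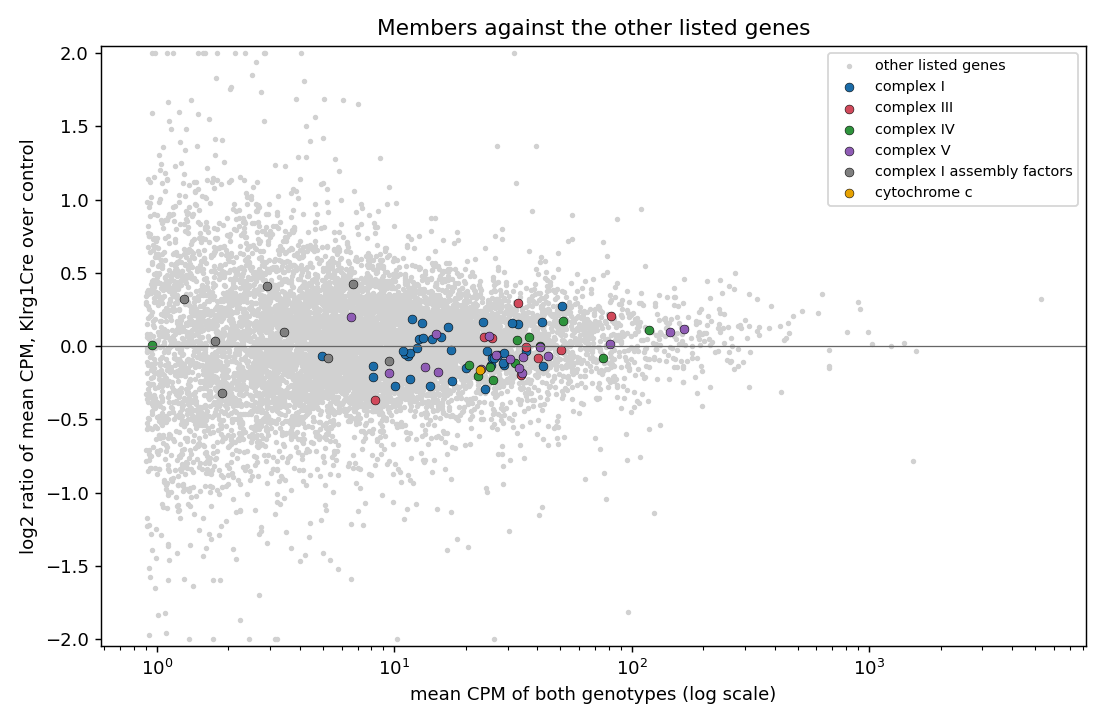
Log2 ratio of the deposited means (Klrg1Cre over control, vertical axis) against the mean CPM of both genotypes (log scale), with members coloured by complex and the other listed genes in grey; grey ratios beyond 2 either way are drawn at 2, and genes under 0.9 CPM and Rn45s are left out. The members lie between -0.36 and 0.43, and those with the widest ratios include the assembly factors at the left.

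The 49 members with library values show how much of this is spread between libraries. In 10 both Klrg1Cre libraries lay above both control libraries (background 19.3%), in 12 both lay below (background 18.3%), and in 27 the genotypes overlapped. The median SD between libraries of one genotype was 0.12 on log2(CPM + 1) over these members. Over all recovered genes it was 0.19. Among those of at least 5 CPM it was 0.12 for the members and 0.16 for all genes.

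**Figure D2:**
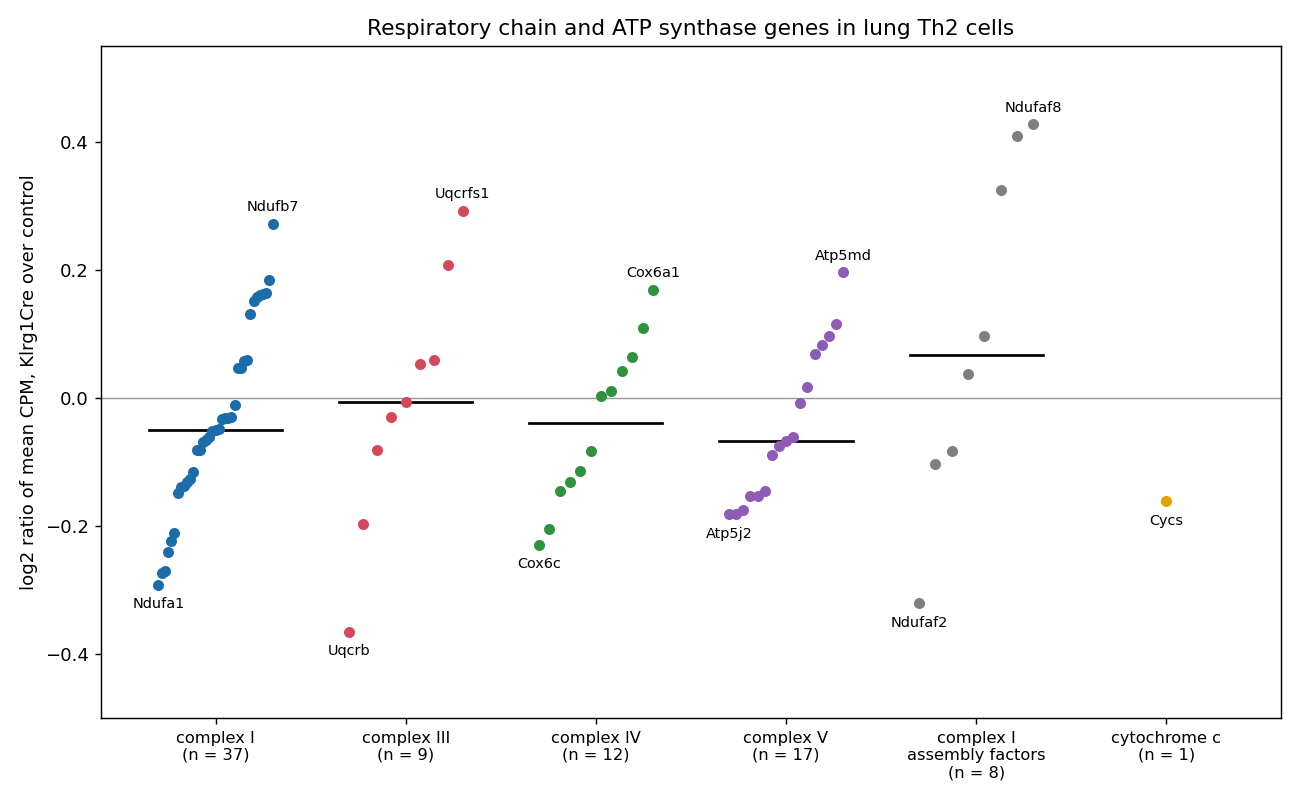
Log2 ratio of the deposited means (vertical axis, Klrg1Cre over control) of each of the 84 genes by complex, ordered within each complex, with a black line at the median where there is more than 1 gene. Medians lie between -0.07 for complex V and 0.07 for the assembly factors, and every complex has genes on both sides of 0.

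Complex I, the NADH dehydrogenase and the entry point for electrons from NADH, had 12 subunits with higher and 25 with lower deposited means, 0 of 37 at an unadjusted p below 0.05 (background 7.09%) and a median log2 ratio of -0.05. Its summed deposited means were 762.7 CPM in Klrg1Cre, against 770.2 CPM in control. The 7 nuclear-encoded core subunits, which hold the flavin and iron-sulfur clusters or the quinone site, split 3 higher to 4 lower with a median of -0.03, and the 30 accessory subunits 9 to 21 with a median of -0.06. Of the core subunits, Ndufs3, in the peripheral arm, had 11.3 and 10.1 CPM in Klrg1Cre, against 13.3 and 11.7 CPM in control. Both Klrg1Cre libraries were below both control libraries (deposited adjusted p = 0.824). Ndufv1, the subunit that binds NADH and the flavin, had 24.6 and 23.8 CPM in Klrg1Cre, against 24.7 and 24.7 CPM in control, a gap smaller than 1 CPM.

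Among the accessory subunits, Ndufb7, on the outer face of the membrane arm, had the highest level of complex I in CPM and the highest ratio. It had 51.0 and 59.9 CPM in Klrg1Cre, against 40.7 and 51.1 CPM in control, a 1.21-fold higher deposited mean (adjusted p = 0.756). The genotypes overlapped, the smaller control library lying just above the larger Klrg1Cre one. Ndufb4c followed with deposited means of 12.6 CPM in the Klrg1Cre samples, against 11.1 CPM in the control samples (adjusted p = 0.844). No protein-coding transcript was found for Ndufb4c in the annotation used for lengths, and Ndufb4 itself was not listed. Whether reads of Ndufb4 were counted under Ndufb4c was not tested. The lowest ratio was that of Ndufa1, a small subunit of the membrane arm, with 21.6 and 21.6 CPM in Klrg1Cre, against 23.8 and 29.2 CPM in control. Both Klrg1Cre libraries were below both control libraries, but the control libraries differed from each other by more than the nearer one differed from Klrg1Cre (deposited adjusted p = 0.756, 1.22-fold lower). Ndufs5, an accessory subunit despite its name, had deposited means of 12.8 CPM in the Klrg1Cre samples, against 15.5 CPM in the control samples (adjusted p = 0.781). Ndufa4, which is named for complex I but is now assigned to complex IV, had 15.1 and 16.9 CPM in Klrg1Cre, against 17.4 and 20.3 CPM in control (deposited adjusted p = 0.794).

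The 8 complex I assembly factors, which build the complex without staying in it, had 5 higher and 3 lower deposited means, 0 at an unadjusted p below 0.05 and a median log2 ratio of 0.07. Ndufaf8 had the highest ratio of all 84 genes. It had 7.84 and 7.48 CPM in Klrg1Cre, against 4.79 and 6.60 CPM in control. Both Klrg1Cre libraries were above both control libraries, with a deposited mean 1.34-fold higher (adjusted p = 0.746). Ndufaf3 had 9.03 and 9.34 CPM in Klrg1Cre, against 8.57 and 11.2 CPM in control, and Ndufaf7, known in human cells as a methyltransferase, had 5.50 and 4.67 CPM in Klrg1Cre, against 6.35 and 4.41 CPM in control. The genotypes overlapped in both. The other 5 had means under 5 CPM. The large ratios among them rest on few reads, as in Ndufaf6, with 50 and 14 reads in the Klrg1Cre libraries and 34 and 41 in the control libraries.

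Complex III, which carries electrons from coenzyme Q to cytochrome c, had the widest range of ratios among the 4 complexes. Of its 9 genes 4 had higher and 5 lower deposited means, 0 had an unadjusted p below 0.05 and the median log2 ratio was -0.01. Uqcrfs1 encodes the Rieske iron-sulfur protein and had the lowest unadjusted p of all 84 genes. It had 36.2 and 36.8 CPM in Klrg1Cre, against 30.3 and 29.3 CPM in control. The libraries were close within each genotype and apart between them, with a deposited mean 1.22-fold higher (adjusted p = 0.711), and the limma interval on log2(CPM + 1) ran from -0.02 to 0.59. Uqcrc1, a core protein and the most abundant transcript of the complex in CPM, had 86.7 and 89.2 CPM in Klrg1Cre, against 72.3 and 80.1 CPM in control. Again both Klrg1Cre libraries were above (1.15-fold, deposited adjusted p = 0.764). The other core protein gene, Uqcrc2, had deposited means of 26.2 CPM in the Klrg1Cre samples, against 25.3 CPM in the control samples. Cyc1, the cytochrome c1 that hands electrons to cytochrome c, had 38.3 and 39.7 CPM in Klrg1Cre, against 39.7 and 42.8 CPM in control, which overlapped.

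The small subunits of complex III, which surround this catalytic core, had lower deposited means in 4 of 5 genes. Uqcrb had the lowest ratio of all 84 genes, with 8.38 and 6.18 CPM in Klrg1Cre, against 9.02 and 9.73 CPM in control. Both Klrg1Cre libraries were below both control libraries, and the gap between them was wider than that to the nearer control library (1.29-fold lower, deposited adjusted p = 0.764). Uqcrh, the hinge protein next to cytochrome c1, had 31.1 and 32.3 CPM in Klrg1Cre, against 33.3 and 39.5 CPM in control, also without overlap (deposited adjusted p = 0.811). Uqcr10 and Uqcrq had deposited means of 49.8 and 35.9 CPM in Klrg1Cre, against 50.8 and 36.1 CPM in control.

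**Figure D3:**
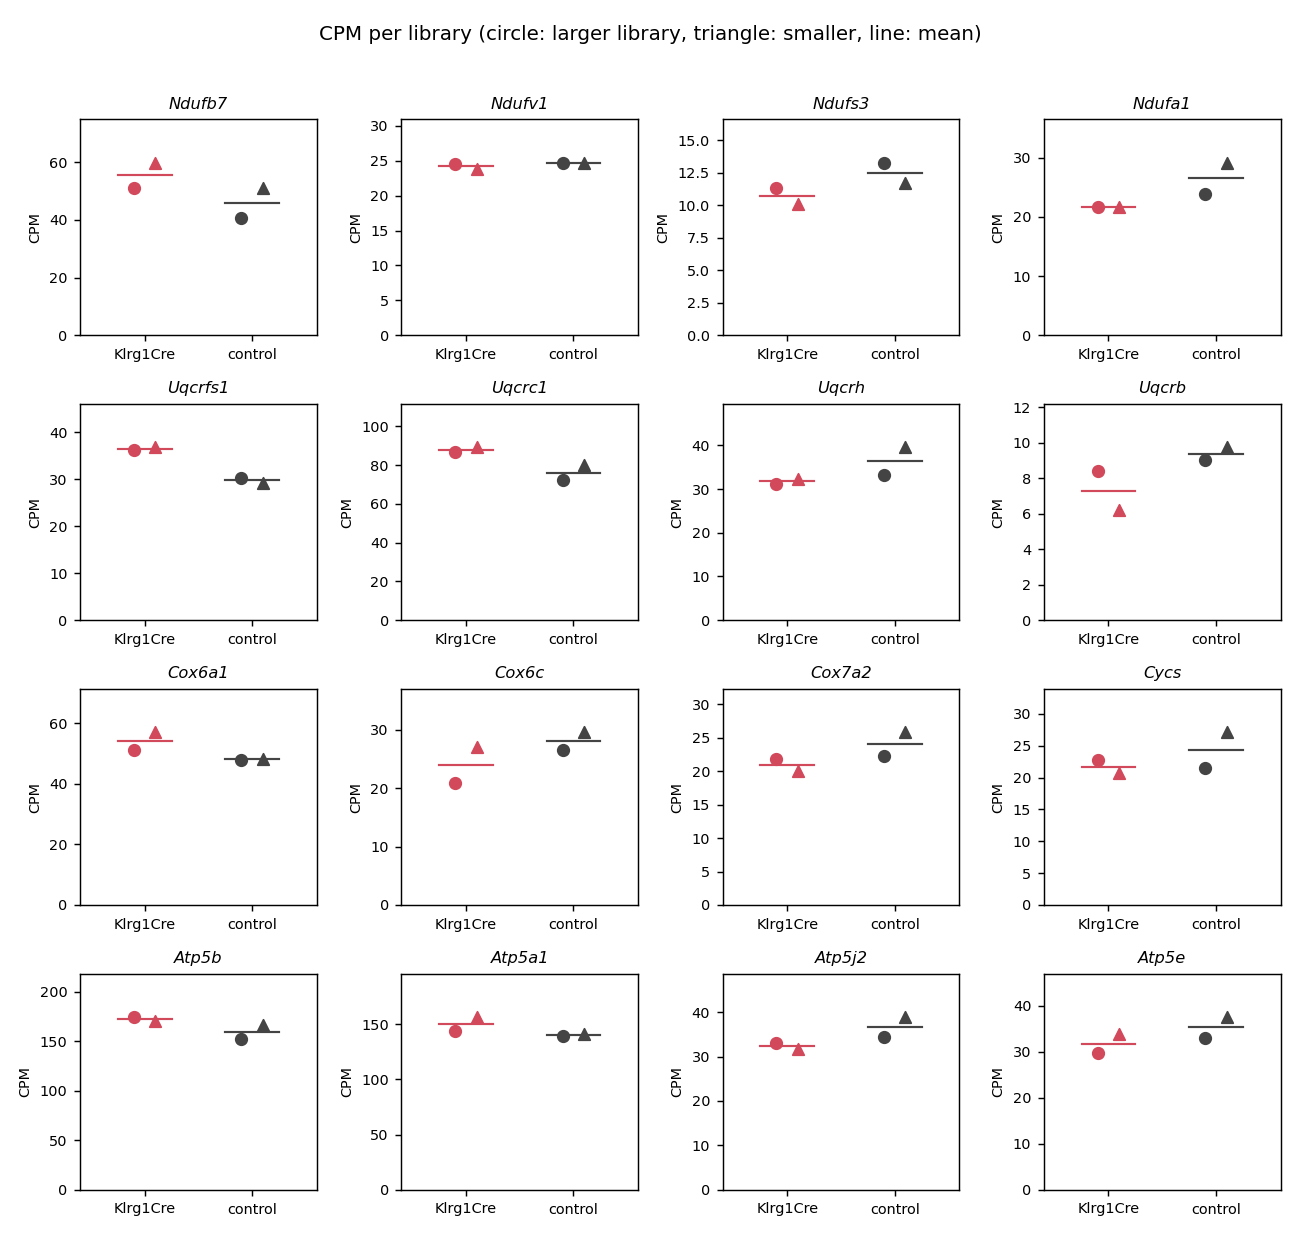
CPM in each recovered library (vertical axis from 0) for 16 members, Klrg1Cre in red at the left and control in dark grey at the right; circles are the larger library of a genotype, triangles the smaller, and lines the mean. Uqcrfs1 stands at 36.2 and 36.8 CPM in Klrg1Cre against 30.3 and 29.3 CPM in control, while Cycs, Cox6c, Ndufb7 and Atp5e overlap.

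Cycs, the mobile carrier between complexes III and IV and a trigger of apoptosis once released from mitochondria, had 22.7 and 20.7 CPM in Klrg1Cre, against 21.5 and 27.1 CPM in control. The larger control library fell between the Klrg1Cre libraries (deposited adjusted p = 0.868, 1.12-fold lower).

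Complex IV, which reduces oxygen to water, had 6 genes with higher and 6 with lower deposited means, 0 of 12 at an unadjusted p below 0.05 (background 7.09%) and a median log2 ratio of -0.04. Its summed deposited means were 482.8 CPM in Klrg1Cre, against 483.8 CPM in control. Cox4i1, the largest nuclear-encoded subunit and the most abundant in CPM, had deposited means of 122.2 CPM in the Klrg1Cre samples, against 113.3 CPM in the control samples (adjusted p = 0.873). Cox6a1 had the highest ratio, with 51.2 and 57.1 CPM in Klrg1Cre, against 48.0 and 48.3 CPM in control. Both Klrg1Cre libraries were above both control libraries (deposited adjusted p = 0.815). Cox6c had the lowest, with 20.8 and 27.0 CPM in Klrg1Cre, against 26.5 and 29.6 CPM in control, and the smaller Klrg1Cre library lay above the larger control one (deposited adjusted p = 0.796). Cox7a2 had 21.8 and 20.0 CPM in Klrg1Cre, against 22.3 and 25.8 CPM in control, without overlap but with 1 control library close to the Klrg1Cre ones (deposited adjusted p = 0.815). Cox8a, a small subunit, had 77.1 and 70.6 CPM in Klrg1Cre, against 74.1 and 82.2 CPM in control, which overlapped.

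Some complex IV subunits exist as isoforms that are used in different tissues. Cox6a1, the form of most tissues, had 89.6 CPM per kilobase of transcript over both genotypes, against 1.40 CPM per kilobase for Cox6a2, the form of heart and skeletal muscle, a ratio of 63.8. Cox6a2 had 32 and 10 reads in the Klrg1Cre libraries and 28 and 34 in the control libraries, and its deposited means were 0.958 CPM in Klrg1Cre, against 0.951 CPM in control. Cox6a2 overlaps Itgad, a listed gene on the opposite strand, and whether the counting used strand is not given in the sources used here. Cox6b1 had deposited means of 37.8 CPM in the Klrg1Cre samples, against 36.1 CPM in the control samples. Cox7a2l had 33.5 CPM in Klrg1Cre, against 32.5 CPM in control in the deposited means. Cox4i2, Cox6b2, Cox7a1 and Cox8b, the other isoforms looked for, were not listed and have no value here.

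Complex V, the ATP synthase, had 6 genes with higher and 11 with lower deposited means, 0 of 17 at an unadjusted p below 0.05 (background 7.09%) and a median log2 ratio of -0.07. Its summed deposited means were 747.9 CPM in Klrg1Cre, against 742.9 CPM in control. Atp5b and Atp5a1, which encode the beta and alpha subunits of the catalytic head, were the most abundant of the 84 genes in CPM. Atp5b had 174.1 and 170.6 CPM in Klrg1Cre, against 152.2 and 166.1 CPM in control, and Atp5a1 had 143.7 and 156.2 CPM in Klrg1Cre, against 139.3 and 141.2 CPM in control. Both genes had both Klrg1Cre libraries above both control libraries by small margins, with deposited means 1.08-fold and 1.07-fold higher (adjusted p = 0.854 and 0.895). The 5 genes of the F1 part, which is the head with its central stalk, had a median log2 ratio of 0.02. The 4 of the peripheral stalk, which holds the head in place, had -0.03.

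The membrane part of ATP synthase had lower deposited means in 4 of 5 of its small subunits besides subunit c, with a median log2 ratio of -0.18. Atp5j2, subunit f, had 32.9 and 31.6 CPM in Klrg1Cre, against 34.3 and 38.9 CPM in control, without overlap (deposited adjusted p = 0.815). Atp5mpl had deposited means of 8.93 CPM in the Klrg1Cre samples, against 10.1 CPM in the control samples (adjusted p = 0.856). Atp5md, in contrast, had 6.88 and 7.21 CPM in Klrg1Cre, against 7.07 and 5.23 CPM in control, with the larger control library between the Klrg1Cre ones. Subunit c forms the rotating ring, and its mature protein is the same from each of its 3 genes, Atp5g1, Atp5g2 and Atp5g3. Their deposited means were 15.5, 34.1 and 29.7 CPM in Klrg1Cre, against 14.6, 35.9 and 31.6 CPM in control, with adjusted p from 0.932 to 0.955. Per kilobase over both genotypes, Atp5g2 had 47.9 to 79.4 and Atp5g3 had 43.0 CPM, while Atp5g1 had 3.19 to 25.2 CPM depending on which annotated transcript gives the length. The 3 genes are alike where they encode the mature protein, so each value is uncertain as far as reads could match more than 1 of them.

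Levels per kilobase of transcript, averaged over both genotypes, could be set for 82 of the 84 genes. Cox4i1 had 155.9 CPM per kilobase, Cox8a 138.2 and Uqcr10 115.8. Within the F1 part of ATP synthase, Atp5d had 86.6, Atp5b 86.5, Atp5e 79.6, Atp5a1 58.7 and Atp5c1 37.9 CPM per kilobase. Neither the alpha nor the beta chain, each present in several copies in the head, exceeded all of the single-copy chains in transcript level. Lengths are those of GENCODE M21 principal transcripts, which belong to another build than the one the reads were aligned to.

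Ratios varied somewhat with the make-up of the transcripts. Across 82 members, the log2 ratio had a Spearman correlation of 0.21 with the GC content of the transcript and 0.28 with its length. Across 6174 listed genes of at least 5 CPM these were 0.28 and -0.04. These are descriptions across genes, which share the same 4 libraries, and the part of GC content and length in the ratios of single members was not tested. Members with an NRF1 core in the promoter had a median log2 ratio of -0.08 (n = 9), against -0.06 without it (n = 60). Those with an ETS core had 0.06 (n = 13), against -0.06 (n = 56), those with a CREB site 0.05 (n = 5), against -0.06 (n = 64), those with a CCAAT box -0.08 (n = 29), against -0.03 (n = 40), and those with a TATA box 0.15 (n = 6), against -0.06 (n = 63). The 1 member with a YY1 core had -0.06, against a median of -0.06 (n = 68).

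The medians moved when single libraries were left out, and those of complexes I and III changed sign. Over the 49 recovered members the median log2 ratio was -0.05 with all libraries, -0.13 without the larger control library and 0.045 without the smaller control library. Complex I went the same way, at -0.12 and 0.060. Without the larger Klrg1Cre library complex III had a median of 0.06, against -0.09 without the smaller one. When means were expressed per read other than Rn45s, every ratio rose by 0.57 on the log2 scale, members and other genes alike. Expressed per read of listed genes other than Rn45s, every ratio moved by -0.026.

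**Figure D4:**
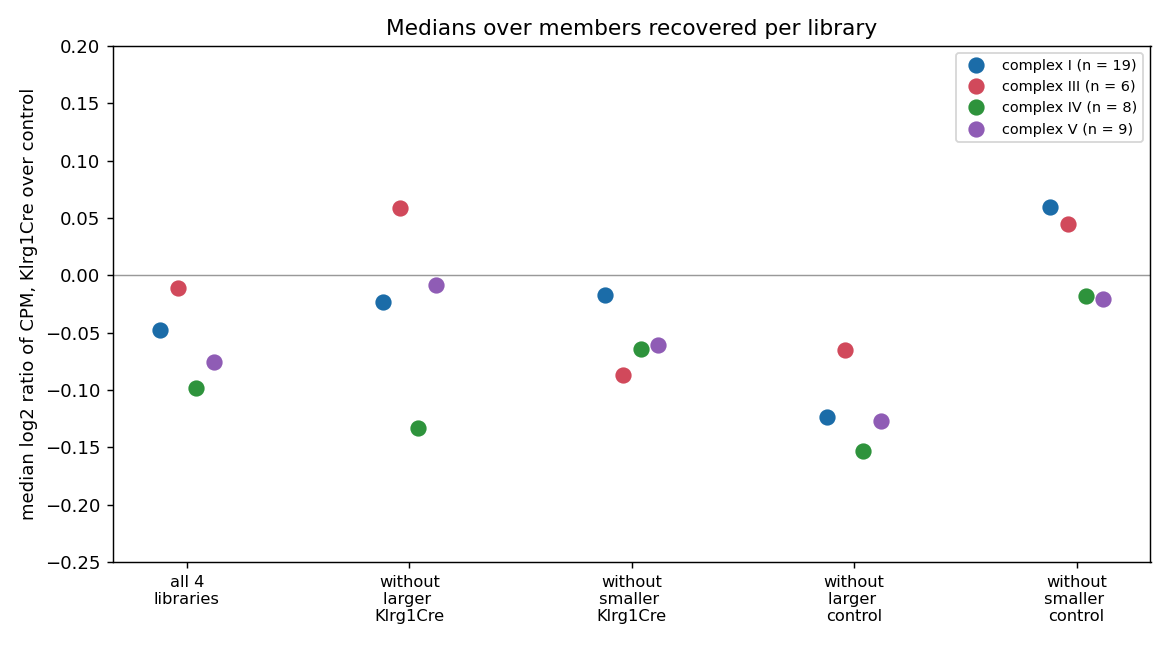
Median log2 ratio of CPM (Klrg1Cre over control, vertical axis) of the members recovered per library in complexes I, III, IV and V, with all 4 libraries and with each library left out. Complex I lies at -0.12 without the larger control library and at 0.06 without the smaller one, so its side of 0 depends on the control library used.

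Among other genes of the pathway, from lists chosen for their role, 0 passed the deposited adjusted p of 0.05 (background 0.0589%). The share of deposited ratios within 1.25-fold of equality was 100% of 4 complex II genes and of 8 carriers and channels, 73.7% of 19 complex IV assembly factors, 70% of 10 assembly factors and inhibitors of complexes III and V, 62.5% of 16 regulators and 53.8% of 13 coenzyme Q genes. Complex II, succinate dehydrogenase, had 3 higher and 1 lower deposited mean among its 4 genes and 0 at an unadjusted p below 0.05, with Sdha at 60.5 CPM in Klrg1Cre, against 60.2 CPM in control and Sdhd at 41.7 and 36.3 CPM. Of 8 listed carriers and channels, 0 had an unadjusted p below 0.05; Slc25a5, which exports ATP from mitochondria, had 118.3 CPM in Klrg1Cre, against 114.3 CPM in control, and the uncoupling protein gene Ucp2, the most abundant, 457.5 and 439.9 CPM in the deposited means. Of 16 listed regulators of mitochondrial gene expression, also 0 did, with Nrf1 at 19.8 CPM in Klrg1Cre, against 17.3 CPM in control. Of 10 assembly factors and inhibitors of complexes III and V, 8 had higher deposited means and 0 an unadjusted p below 0.05, with Atpif1, the ATP synthase inhibitor, at 26.7 and 25.9 CPM. None of the 13 mitochondrially encoded subunits was listed (0 of 13).

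Complex IV assembly and coenzyme Q synthesis held the only genes of these pathway lists with an unadjusted p below 0.05. Of 19 listed assembly factors, 2 had higher deposited means at that level (background 3.72%) and 0 lower (background 3.37%), and the most abundant, the copper chaperone gene Cox17, had 43.7 CPM in Klrg1Cre, against 42.8 CPM in control. Cox10, which makes heme O on the way to the heme A of complex IV, had 12.1 and 10.7 CPM in Klrg1Cre, against 8.36 and 8.20 CPM in control. Both Klrg1Cre libraries were above (deposited adjusted p = 0.698). Sco2, a copper chaperone of complex IV, had deposited means of 3.53 CPM in the Klrg1Cre samples, against 1.83 CPM in the control samples (adjusted p = 0.653). Of 13 coenzyme Q genes, 1 was higher and 1 lower at that level, against 7.09% of all genes in either direction, and Coq9, the most abundant, had deposited means of 9.38 and 9.26 CPM. Coq8a, an atypical kinase of the pathway, had deposited means of 3.47 CPM in the Klrg1Cre samples, against 6.70 CPM in the control samples (adjusted p = 0.607). Coq2, which attaches the side chain of coenzyme Q, had 3.15 and 3.85 CPM in Klrg1Cre, against 2.25 and 1.81 CPM in control (deposited adjusted p = 0.698).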

How the data were processed

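STAR, Partek and the mm9 build are named, without versions, in what the submitters' processing notes list. The deposited group means are in CPM. The deposited ratio equalled the quotient of these means in 11828 of 11883 rows, within a relative tolerance of 1e-09, and the deposited signed fold change is a score; per the file headers, the p-values and adjusted p-values come from the authors, whose model is not given in the sources used here. The deposited signal column (total counts) equals 2 times the sum of both means and was not used. The deposited adjusted p equalled a Benjamini-Hochberg adjustment in all 11883 rows. An offset of 0.0001 CPM in every mean was removed before each mean was split into whole reads of 2 libraries. In both genotypes 5351 genes (45.0%) could be split, and no count model was run on them. On simulated means the split recovered 100% of genes with whole reads and 0 with fractional reads. limma 3.58.1 (R 4.3.3, trended variance, log2(CPM + 1)) was run on 4242 recovered genes at 1 CPM or more, and the rank correlation (Spearman) of limma p-values with deposited p-values was 0.998. It was also tested on simulated data. Transcript lengths came from GENCODE M21 and promoters from RefSeq, both GRCm38; the deposited table gives no coordinates. The design had allowed for a count test per sample over all genes. The deposited table holds group means, and reads per library were recovered for only part of the genes, so the authors' p-values are the main test.

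The genes named are those with an unadjusted p below 0.05, the most abundant of each complex, the 2 highest and 2 lowest ratios of each complex among means of at least 5 CPM, Cyc1, Cycs, isoform genes and genes under 1 CPM; from the other lists, genes with an unadjusted p below 0.05 and the most abundant one are named. Further genes are named as examples of core subunits or roles and were chosen after their values were seen. Members and lists were chosen with earlier results of these data known. In GENCODE M21, 22 members overlap another listed coding gene, among those named Atp5a1, Atp5d, Cox4i1, Cox6a2, Cox6c, Ndufs3, Ndufaf3 and Uqcrb, and the strand setting of the counting is not given in the sources used here. The values of 1 member are not reported here by name; it is counted in the totals.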

Additional observations from a re-analysis of the deposited data

How the results depend on the processing

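Adding 1 CPM, keeping only members of at least 5 CPM, rescaling to listed genes other than Rn45s, taking only recovered members, counting Ndufa4 with complex IV, or (chosen after seeing the data) subtracting the median of all genes moved the medians over all members and over each of the 4 complexes by less than the spread between libraries. Rescaling to reads that are not Rn45s put the median log2 ratio at 0.52 over all members, 0.52 in complex I, 0.56 in complex III, 0.53 in complex IV and 0.50 in complex V, a shift of 0.57 that by construction is the same for every gene. Leaving out 1 library at a time gave medians from -0.13 to 0.045 over all recovered members, -0.12 to 0.060 in complex I, -0.087 to 0.059 in complex III, -0.15 to -0.018 in complex IV and -0.13 to -0.0086 in complex V. No member passed an adjusted p of 0.05 (0 of 48) in limma with all libraries or with any 1 left out. At an unadjusted p, limma gave 0 members with all libraries and 0 to 2 with 1 left out, an alternative chosen after seeing the data: Ndufb7 and Uqcrb without the larger Klrg1Cre library (11% of all 4242 genes), Cox6c without the smaller one (9.12%), Ndufb7 without the smaller control library (4.27%), and 0 members without the larger control library (6.18%); the lone library of a genotype is there assumed to vary like the others. No paired analysis was possible because the deposited columns carry no replicate numbers. Counting error is smallest for the members with the most reads and limits the assembly factors and Cox6a2 most.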
